A study of Mus musculus with 12 samples.

Results

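Cultured epiblast cells (cEpi) were set against embryonic stem (ES) cells of the mouse. The set held every array that the labels call cEpi and every array that they call ES, 3 of each and 6 of the 12 arrays of the series, and no measured value entered this choice. The cEpi labels describe epiblast that was cut out of post-implantation embryos of embryonic day 5.5 to 7.5 and taken apart with EGTA and then trypsin, and they refer to an earlier description for the embryos. That description stands in the ES records: females of strain 129/sv or ROSA 129/Sv were crossed with males transgenic for Oct4-△PE-EGFP, a green fluorescent reporter under Oct4 control sequences. The ES records otherwise name only mouse ES cells, with no line, passage or culture, so they do not settle where the ES cells came from. The medium and any feeder layer are not described for cEpi or ES. The other 6 arrays hold ES-like cells derived by reprogramming of epiblast (rEpiES), 3 at passage 4 and 3 at passage 24, grown on mouse embryonic fibroblast feeders in serum and LIF, and they are quoted only beside single genes. Nothing in the labels tells separate cultures from repeat arrays within a group, so each p-value here is relative to the spread among arrays, which may be technical.

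ES cells are held to stand for the naive pluripotent state of the pre-implantation embryo, which LIF signalling through Stat3 sustains in culture. The epiblast after implantation is pluripotent in a primed state, which depends on Activin or Nodal and on FGF and lies close to gastrulation. In the embryo the neighbouring visceral endoderm secretes antagonists of Nodal, WNT and BMP that pattern this epiblast.

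Signals are given on the log2 scale of the authors' quantile-normalised values, on which a difference of 1 is 2-fold, and every difference is cEpi minus ES with its standard error. A probe counted as detected at a signal-to-noise score of 3 or more and entered the test if every cEpi array or every ES array detected it. Detection took in 15726 to 16537 of 33012 probes per cEpi array and 12061 to 13827 per ES array. The cEpi arrays lay closer to each other than the ES arrays did, with a median SD of 0.0829 in cEpi and 0.224 in ES. The 3 cEpi arrays correlated with each other at 0.996 across the 14312 tested probes, the 3 ES arrays at 0.963 to 0.967, and cEpi with ES arrays at 0.869 to 0.887. The cEpi files share a layout with rEpiES passage 4 and the ES files share another with rEpiES passage 24, so file layout and group cannot be told apart here. Some probes divided by layout. Olfr1238, an odorant receptor gene, had means of 8.13 in cEpi and 15.58 in ES, while rEpiES averaged 7.89 at passage 4 and 15.28 at passage 24.

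The tested probes covered 8421 named genes, of which 6082 were detected on all 6 arrays, 808 on the 3 cEpi arrays and no ES array, and 25 on the 3 ES arrays and no cEpi array. By limma with Benjamini-Hochberg adjustment over all tested probes, 3201 of these genes (38.0%) were higher in cEpi and 2242 (26.6%) were lower. At least 2-fold calls were 1973 higher (23.4%) and 880 lower (10.5%). Among the genes detected on all 6 arrays, 32.8% were called higher and 34.7% lower. These shares are the background for each count below, as is the median difference of 0.23 over all tested genes and of -0.02 over the genes detected on all 6 arrays. A gene that not every array of 1 group detected entered the test only through the other group, which favours a call toward that group. Groups without overlap also occurred in genes that did not pass the test, such as Twist2, so non-overlap is given below as description only. Its share over all tested genes is not given here. The split of calls moved with the scaling of the arrays: 55.5% of called probes were higher in cEpi with the authors' normalisation, 85.4% after scaling the deposited intensities to a common median and 89% with no further normalisation. Median scaling raised the median difference of all tested probes by 0.57 and leaving out normalisation raised it by 0.70, so lists are read against the median of all genes. Of the 14312 tested probes, median scaling called 7899 higher and 1355 lower, and no further normalisation called 8303 and 1029. Those counts are the background for list counts under these 2 scalings.

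**Figure D1:**
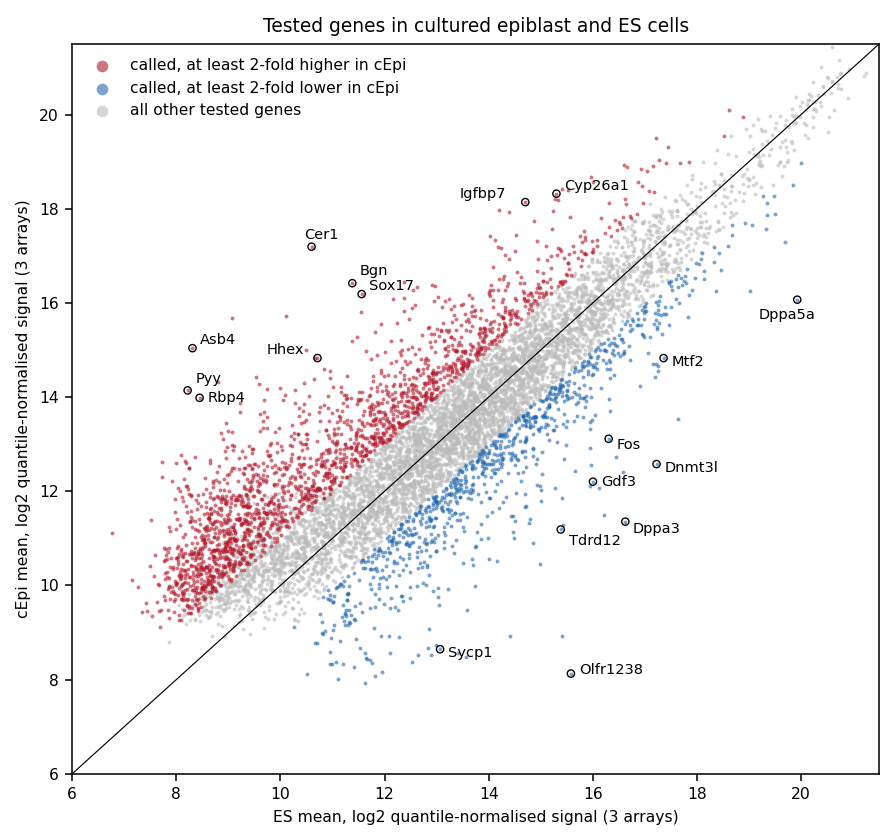
Each point is 1 of 8421 tested genes, with its mean log2 quantile-normalised signal over 3 cEpi arrays on the vertical axis and over 3 ES arrays on the horizontal axis, and the line marks equal signal. The red points, at least 2-fold higher in cEpi, are 1973 and lie largely where ES is dim, and the 880 blue points, at least 2-fold lower in cEpi, include Dppa3, Dnmt3l and Sycp1 far from the line.

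The labelled states were checked against their markers. Of 16 tested naive genes 14 were lower in cEpi and 1 was higher. Of 16 post-implantation epiblast genes 7 were higher and 4 lower, shares near those of all genes, and 1 was lower with no further normalisation. Fgf5, a growth factor of the early post-implantation epiblast, had 17.36, 17.45 and 17.39 in cEpi and 15.87, 15.93 and 15.77 in ES, so it was also well detected on every ES array. Pou3f1, a POU factor of the same stage, was lower in cEpi (-1.72 ± 0.21, adjusted p 0.001), the largest fall of this list. Larger changes were the rises of Foxd3, Pim2 and Cdh2, the last by 2.12 ± 0.09 (adjusted p 4.12e-05). Nodal itself did not pass the test (-0.26 ± 0.10, adjusted p 0.0683).

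Markers of other cells moved as well. All signals of bulk samples mix cell number and RNA per cell, so more cells of a type cannot be told apart from more RNA in each cell. The feeder fibroblast list had 20 of 22 tested members higher in cEpi and 0 lower, and its summed linear signal was 3150000 to 3260000 units in cEpi and 768000 to 1090000 in ES. Of its defining genes Thy1 was detected on no ES array, Pdgfra was detected on 2 cEpi arrays and no ES array and was not tested, and Pdgfrb and Twist2 did not pass the test. The endoderm list had 13 of 16 higher and 2 lower, with summed signals of 1710000 to 1860000 in cEpi and 537000 to 568000 in ES. Its liver-type visceral endoderm markers Afp and Apoa1 were detected on no cEpi array, and Ttr on 2 of 3. Of the neural list 3 of 11 tested members were higher and 4 lower, with Sox1 and Pax6 detected on no array. Of the blood and endothelium list only 4 genes were tested, 1 higher, and no globin gene of the list was tested. Trophoblast genes were 6 higher and 3 lower of 11, of which Krt7, Krt8 and Krt18 also belong to the keratins. The trophoblast sums were 743000 to 865000 in cEpi and 201000 to 220000 in ES. Krt8, given by array below, made up most of each cEpi sum, so these sums largely follow that keratin gene. Of the other trophoblast members Gata3 and Plac1 were called higher. Esx1 was the largest of the 3 falls, each of at least 2-fold, while Tpbpa, Gata2 and Dlx3 were detected on no array. Cardiac and muscle genes were 7 higher and 2 lower of 12, with sums of 83300 to 84600 in cEpi and 43400 to 48000 in ES and with Tnni3, Myh7 and Tbx5 detected on no array. Leaving out any 1 cEpi array gave 3 cardiac and muscle genes higher.

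**Figure D2:**
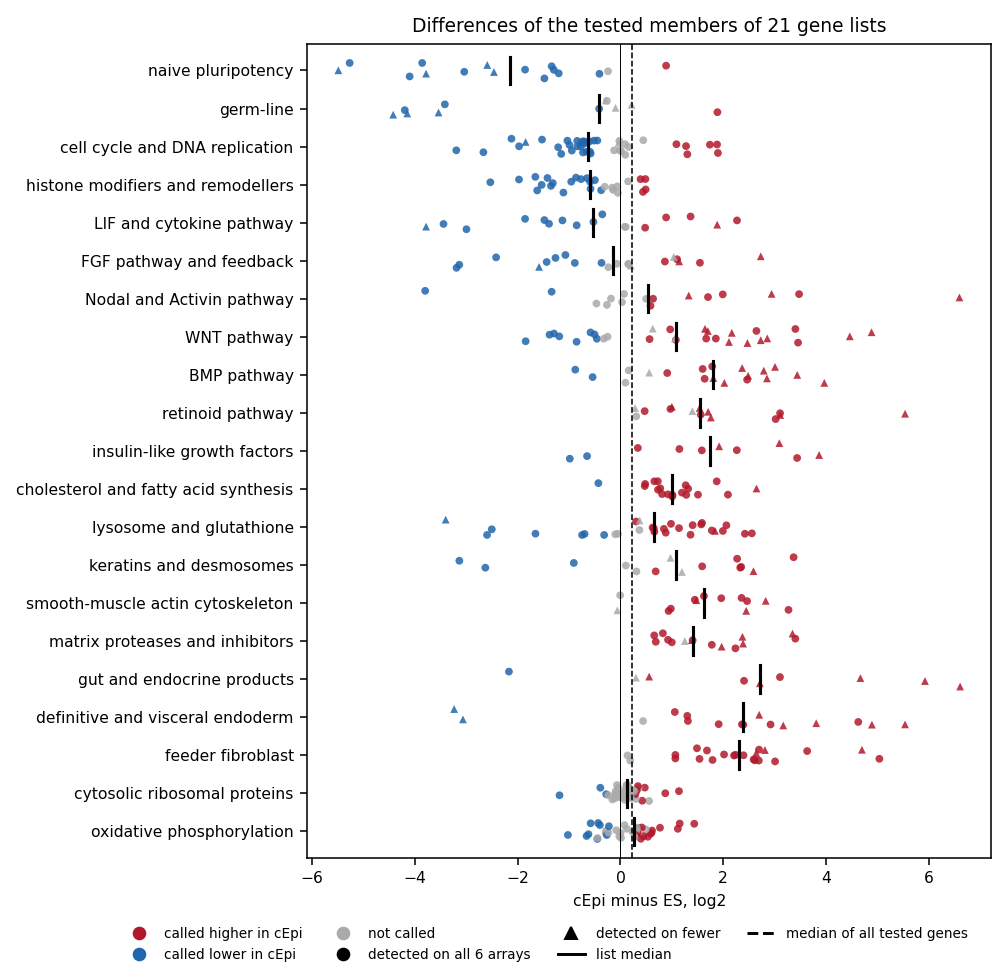
Each mark is a tested member of 1 of 21 gene lists, placed by its cEpi minus ES difference on the log2 scale, as a circle where it was detected on all 6 arrays and as a triangle where it was not, with red for called higher in cEpi, blue for called lower and grey for not called. Short bars are list medians and the dashed line is the median of all tested genes, 0.23; the naive, cell cycle and histone modifier medians lie left of it and the endoderm, feeder and gut product medians lie furthest right.

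The germ-line list held genes that were undetected or low in cEpi, genes that moved little and 1 gene that was higher. Of its 26 genes with a named probe only 11 were tested, 6 of them lower and 1 higher in cEpi, with a median of -0.41. Mael encodes a factor of the piRNA pathway that silences transposons in germ cells. Its signals were 8.16, 7.98 and 8.98 in cEpi and 12.32, 12.98 and 12.26 in ES. It was detected on every ES array and on no cEpi array, at least 17.7-fold lower in cEpi (adjusted p 0.000236). Sycp1, a protein of the synaptonemal complex that pairs meiotic chromosomes, had 8.59, 8.82 and 8.53 in cEpi and 13.18, 12.96 and 13.06 in ES. It was at least 21.4-fold lower (adjusted p 2.03e-05). Zp3, an egg coat protein, was at least 11.6-fold lower (adjusted p 0.000708). Tex19.1, which restrains transposons in germ and placental cells, had 12.62, 12.41 and 12.62 in cEpi and 16.03, 15.81 and 16.05 in ES, and differed by -3.42 ± 0.11 (adjusted p 2.76e-05). Tdrd12, a Tudor protein of the piRNA pathway, differed by -4.20 ± 0.13 (adjusted p 2.28e-05). For these 5 genes no cEpi array reached any ES array. The vasa helicase gene Ddx4 differed by only -0.41 ± 0.12 (adjusted p 0.0297), a sign that turned with median scaling (0.22), and Prdm1, a repressor of the germ cell and other lineages, was higher (1.89 ± 0.20, adjusted p 0.000638). In rEpiES, Mael had a mean of 13.08 at passage 4 and 13.36 at passage 24, and Sycp1 had 13.05 and 12.54, near their ES levels.

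The promoters of 4 of these genes are shown because they were low together. Each run is 300 bases of RefSeq sequence on build GRCm38.p6, read on the gene's own strand, from 250 bases before its start to 50 after. Capitals mark TCCCGC, the core of E2F-type sites, and the E box CACGTG, each on either strand.
Mael promoter (chr1:166238695-166238994, minus strand): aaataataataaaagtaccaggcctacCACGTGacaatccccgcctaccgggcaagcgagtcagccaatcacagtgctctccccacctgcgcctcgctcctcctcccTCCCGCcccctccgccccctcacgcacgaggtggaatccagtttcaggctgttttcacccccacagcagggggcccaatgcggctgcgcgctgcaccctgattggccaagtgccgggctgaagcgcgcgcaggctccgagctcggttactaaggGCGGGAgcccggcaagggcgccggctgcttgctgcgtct
Sycp1 promoter (chr3:102936051-102936350, minus strand): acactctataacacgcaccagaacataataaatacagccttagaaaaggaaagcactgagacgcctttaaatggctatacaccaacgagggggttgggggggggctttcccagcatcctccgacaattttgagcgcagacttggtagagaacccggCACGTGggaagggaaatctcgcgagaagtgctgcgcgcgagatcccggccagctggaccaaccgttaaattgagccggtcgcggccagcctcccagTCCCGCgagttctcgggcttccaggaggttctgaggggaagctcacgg
Tex19.1 promoter (chr11:121145893-121146192, plus strand): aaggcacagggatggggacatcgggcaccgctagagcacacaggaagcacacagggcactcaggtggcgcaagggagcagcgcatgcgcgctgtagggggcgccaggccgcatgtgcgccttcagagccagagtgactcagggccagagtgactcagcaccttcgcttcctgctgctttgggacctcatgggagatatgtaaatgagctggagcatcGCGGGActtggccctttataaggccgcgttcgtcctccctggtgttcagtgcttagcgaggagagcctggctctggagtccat
Zp3 promoter (chr5:135979855-135980154, plus strand): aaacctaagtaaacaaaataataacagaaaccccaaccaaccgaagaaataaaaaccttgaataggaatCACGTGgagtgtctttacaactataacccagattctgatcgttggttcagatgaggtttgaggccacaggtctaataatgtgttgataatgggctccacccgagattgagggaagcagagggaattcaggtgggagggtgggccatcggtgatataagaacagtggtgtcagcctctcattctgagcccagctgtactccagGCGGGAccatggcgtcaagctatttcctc
Of the 11 tested germ-line genes 9 had exactly 1 promoter in the table. TCCCGC occurred in 7 of these 9, against 37.0% of the 5489 tested genes with 1 promoter and 19.6% of all 22862 such promoters. CACGTG occurred in 5 of the 9, against 10.6% of tested genes and 7.12% of all promoters. Of the 5 promoters of genes called lower, 5 held TCCCGC and 4 held CACGTG. These were the 4 shown and that of Ddx4, which held both motifs and whose small fall turned in sign with median scaling. Tdrd12 was not among them. Among the rest of the 9 promoters that of Ddx25, which was not called, held both motifs. Genes at least 2-fold lower in cEpi held TCCCGC in 37.9% of promoters and genes at least 2-fold higher in 36.9%.

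Genes of the Nodal pathway moved in both directions. Cer1 is a secreted inhibitor of Nodal, WNT and BMP made by the anterior visceral endoderm and early endoderm. It had 17.25, 17.22 and 17.12 in cEpi and 10.89, 10.06 and 10.85 in ES, where 1 of 3 arrays detected it, a difference of 6.59 ± 0.24 (adjusted p 3.17e-05). Lefty2, a feedback inhibitor of Nodal, rose by 1.70 ± 0.09 (adjusted p 7.57e-05). The co-receptor gene Cfc1 had 16.35, 16.38 and 16.43 in cEpi and 13.18, 12.96 and 12.60 in ES (3.48 ± 0.16, adjusted p 5.22e-05). Its paralogue Tdgf1 moved the other way, at 18.48, 18.52 and 18.50 in cEpi and 19.71, 19.74 and 20.07 in ES (-1.34 ± 0.12, adjusted p 0.00034). The ligand gene Gdf3, a Nodal-like factor of ES cells, had 12.22, 12.17 and 12.22 in cEpi and 15.97, 15.96 and 16.08 in ES. It fell by 3.80 ± 0.08 (adjusted p 1.81e-05), and the groups did not overlap for any of these 5 genes. Furin, a protease that matures Nodal, was higher (1.99 ± 0.10, adjusted p 5.76e-05). Over the whole Nodal and Activin list 8 of 16 tested members were higher and 2 lower, and the median of 0.54 lay near that of all genes.

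Members of the WNT pathway moved in both directions. Dkk1, which blocks the WNT co-receptors, had 16.39, 16.36 and 16.35 in cEpi and 12.83, 12.92 and 13.14 in ES (3.40 ± 0.10, adjusted p 2.39e-05). Sfrp1, a secreted decoy receptor, had 15.86, 15.86 and 15.76 in cEpi and 12.03, 12.63 and 12.46 in ES (3.46 ± 0.17, adjusted p 5.89e-05). Every cEpi array lay above every ES array for both genes. Its relative Sfrp5 rose by 4.88 ± 0.57 (adjusted p 0.000877), with only 1 of 3 ES arrays detecting it. The receptor gene Fzd8 rose by 4.46 ± 0.57 (adjusted p 0.00126), again with 1 ES array above the detection limit. In contrast Rspo1, a secreted enhancer of WNT signalling, had 10.68, 10.98 and 10.82 in cEpi and 12.65, 12.67 and 12.70 in ES (-1.84 ± 0.10, adjusted p 7.57e-05). The transcription factor gene Lef1, which acts with beta-catenin, was lower (-1.19 ± 0.20, adjusted p 0.00364), and the co-receptor gene Lrp5 was lower too (-1.38 ± 0.11, adjusted p 0.000235). The secreted antagonist gene Sfrp2 was lower as well (-1.29 ± 0.12, adjusted p 0.000345). In all 17 of 29 tested members were higher and 8 lower, against 19 higher and 4 lower after median scaling and 19 higher and 1 lower with no further normalisation. Rspo1 was called lower under both scalings, and Lef1, Lrp5 and Sfrp2 under median scaling only. The median was 1.08 over all of them but -0.29 over the 18 detected on all 6 arrays, with 8 higher and 9 lower when only such probes were tested, so the list's direction rested on genes that ES arrays detected in part or not at all.

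BMP pathway genes were mostly higher, 14 of 19 tested against 2 lower, with a median of 1.81. With only probes detected on all 6 arrays tested, 5 of 9 were higher and 2 lower, with a median of 0.91. Id1, a direct target of BMP signalling, had 15.94, 16.02 and 15.95 in cEpi and 13.43, 13.25 and 13.84 in ES (2.46 ± 0.16, adjusted p 0.000131). Bmp1, a protease that releases BMP from its antagonists and trims procollagen, rose by 3.97 ± 0.22 (adjusted p 7.64e-05), with 2 of 3 ES arrays detecting it. Twsg1, a secreted BMP modulator, was at least 10.8-fold higher and Nog, a BMP antagonist, at least 7.21-fold higher (adjusted p 0.000867 and 0.00582), each detected on no ES array. The ligand gene Bmp4 was lower, at 13.24, 13.26 and 13.19 in cEpi and 14.11, 13.86 and 14.36 in ES (-0.88 ± 0.14, adjusted p 0.00307), a call that was lost under median scaling and with no further normalisation, where 0 members of the list were lower. Some calls rested on ES arrays that lay far apart. Smad1, which carries the BMP signal, had 12.14, 12.28 and 12.31 in cEpi and 11.29, 9.16 and 7.92 in ES, where 1 array detected it (2.79 ± 0.84, adjusted p 0.0307).

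Regulators of the streak and early endoderm were in the same range. Hhex, a homeobox gene of anterior endoderm, was at least 17.4-fold higher in cEpi (adjusted p 2.03e-05). Sox17, a determinant of endoderm, had 16.16, 16.28 and 16.13 in cEpi and 11.82, 11.25 and 11.62 in ES (4.63 ± 0.16, adjusted p 3.05e-05). Lhx1, needed for the node and head organizer, rose by 2.26 ± 0.17 (adjusted p 0.000178). Of early streak genes Mixl1 differed by -0.68 ± 0.08 (adjusted p 0.000886) and Wnt3 by -0.58 ± 0.11 (adjusted p 0.00564), and under median scaling 0 members of this list were called lower, so these small falls were not kept and that of Wnt3 turned to 0.24. Of 17 tested streak and organizer genes 12 were higher and 3 lower. With only probes detected on all 6 arrays tested, 8 of 12 were higher and 4 lower. The endoderm sums given above moved with Cer1, Hhex and Sox17, and their part in these differences was not tested. Sox17 is itself a member of the endoderm list, so its rise is already inside those sums.

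**Figure D3:**
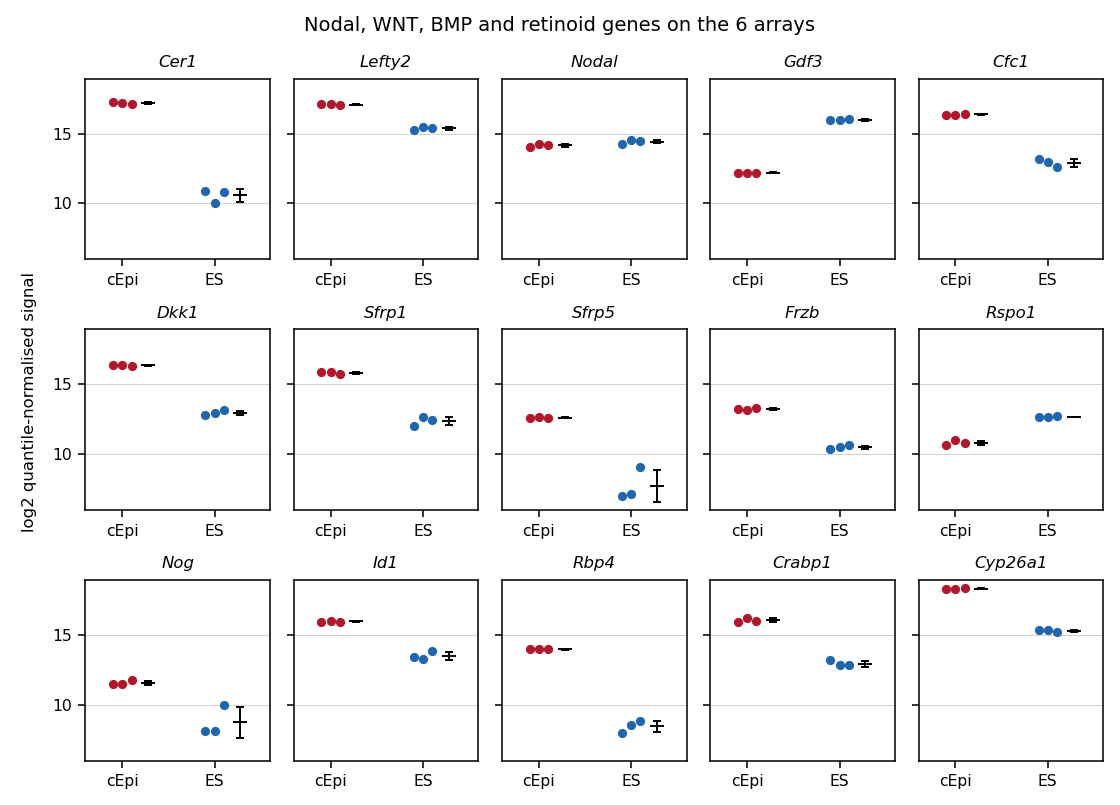
Each panel shows 1 gene, with 3 cEpi arrays in red on the left and 3 ES arrays in blue on the right, log2 quantile-normalised signal on the shared vertical axis, and the mean with its SD in black beside the points. Cer1, Rbp4 and Sfrp5 show the widest gaps, Nodal lies at nearly the same level in both, and Gdf3 and Rspo1 are lower in cEpi.

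Retinoid genes were 11 higher and 0 lower of 14 tested, with a median of 1.55. Of the 14, 6 were detected on all 6 arrays and 6 on the cEpi arrays alone. With only probes detected on all 6 arrays tested, 5 of 6 were higher and 0 lower, with a median of 1.27. Cyp26a1, the enzyme that clears retinoic acid, had 18.33, 18.28 and 18.34 in cEpi and 15.33, 15.36 and 15.21 in ES (3.02 ± 0.08, adjusted p 2.03e-05). Crabp1, a carrier of retinoic acid inside the cell, had 15.92, 16.19 and 16.04 in cEpi and 13.18, 12.83 and 12.82 in ES (3.10 ± 0.14, adjusted p 4.83e-05). Neither gene overlapped between the groups. Rbp4, which carries retinol outside the cell and is made by visceral endoderm, was at least 46.2-fold higher, and Stra6, its receptor, at least 8.62-fold higher (adjusted p 3.43e-05 and 0.000159). Of the synthesising enzymes Aldh1a1, Aldh1a2 and Aldh1a3 were dim in both groups, with means of 10.39, 10.34 and 10.74 in cEpi and 8.68, 8.80 and 8.98 in ES. Their calls were marginal (adjusted p 0.0448, 0.0407 and 0.022), and the list's higher count fell to between 6 and 10 when 1 array was left out.

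In the FGF list Fos and Egr1 were lower in cEpi. Fos, an immediate-early transcription factor gene, had 13.04, 13.05 and 13.25 in cEpi and 16.38, 16.35 and 16.18 in ES (-3.19 ± 0.10, adjusted p 2.71e-05). Egr1, another, had 13.70, 13.58 and 13.56 in cEpi and 15.88, 16.11 and 16.10 in ES (-2.42 ± 0.10, adjusted p 4.03e-05). Both groups stood apart in each gene. The ligand gene Fgf17 fell by 3.14 ± 0.16 (adjusted p 6.53e-05), whereas Fgf10, a ligand of mesenchyme, was at least 6.64-fold higher in cEpi (adjusted p 0.000236). The feedback inhibitors of ERK signalling Dusp6 and Spry4 did not pass the test. In all 5 of 20 tested FGF genes were higher and 9 lower, against 9 higher and 6 lower after median scaling. Under both, the FGF median less that of all tested probes was -0.32.

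The LIF and cytokine list had 5 of 17 tested members higher and 10 lower. Among all genes 26.6% were lower, and 34.7% among those detected on all 6 arrays, as 15 of the 17 members were. Tfcp2l1, a target of LIF in ES cells, was detected on no cEpi array and was at least 13.8-fold lower (adjusted p 4.46e-05). Pim1, a kinase gene that Stat3 induces, had 11.33, 11.56 and 11.51 in cEpi and 14.49, 14.52 and 14.38 in ES (-3.00 ± 0.10, adjusted p 2.66e-05). Its paralogue Pim2 ran opposite, at 14.77, 14.79 and 14.52 in cEpi and 12.28, 12.39 and 12.61 in ES (2.27 ± 0.13, adjusted p 8.26e-05). The rEpiES means of Pim2, 14.30 and 14.17 at passages 4 and 24, lay near cEpi, so ES stood apart from the other 3 groups. Stat3 itself was higher in cEpi (0.89 ± 0.21, adjusted p 0.0132), and its feedback target Socs3 did not pass the test (0.10 ± 0.12, adjusted p 0.474). Jak1, the kinase that LIF receptors use, fell by 3.44 ± 0.17 (adjusted p 5.79e-05), but it divided by file layout, with means of 11.52 in rEpiES passage 4 and 14.50 in rEpiES passage 24. After median scaling only 5 members were called lower. The LIF list's median less that of all tested probes was -0.697 on the authors' scale and -0.625 under median scaling.

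Genes of lipid synthesis were higher in cEpi with 1 exception. Of 19 tested genes of cholesterol and fatty acid synthesis, 18 were higher in cEpi and 1 was lower, with a median of 1.01. All 19 were tested through probes detected on all 3 cEpi arrays, and 18 of them on all 6 arrays. Enzyme genes of the sterol branch were among them. Cyp51, the lanosterol demethylase, had 16.32, 16.26 and 16.24 in cEpi and 14.21, 14.21 and 14.12 in ES (2.09 ± 0.07, adjusted p 3.17e-05). Hmgcs1, which opens the mevalonate pathway, had 18.32, 18.36 and 18.41 in cEpi and 17.16, 17.19 and 17.16 in ES (1.20 ± 0.07, adjusted p 9.96e-05). Msmo1, a sterol oxidase, had 17.06, 17.05 and 17.18 in cEpi and 15.81, 15.90 and 15.63 in ES (1.32 ± 0.10, adjusted p 0.000207). No array of ES reached a cEpi array in these genes. Mvd, which ends the mevalonate branch, rose by 1.51 ± 0.17 (adjusted p 0.000755). Scd2, a desaturase that makes monounsaturated fatty acids, rose by 1.87 ± 0.09 (adjusted p 5.49e-05), and its paralogue Scd1 was at least 6.21-fold higher (adjusted p 0.000808).

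Within that list Fasn, the fatty acid synthase, went the other way, at 16.20, 16.12 and 16.18 in cEpi and 16.55, 16.63 and 16.61 in ES (-0.43 ± 0.07, adjusted p 0.00382). Its sign turned to 0.02 with median scaling, so its direction depended on the scaling while 18 higher calls were made under that scaling too. The regulators Srebf1, the sterol-responsive transcription factor, and Insig1, which holds it back, rose by 0.77 ± 0.12 and 0.47 ± 0.09 (adjusted p 0.00279 and 0.00657). The higher count was 18 in each fit that left out 1 array. Levels in rEpiES lay near ES for Hmgcs1, with means of 17.02 at passage 4 and 17.00 at passage 24.

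The promoter of Hmgcs1 is shown because it alone in the list held a sterol element motif. Capitals mark TCACNCCAC, where N is any base, searched on both strands of the same 300 bases.
Hmgcs1 promoter (chr13:119690101-119690400, plus strand): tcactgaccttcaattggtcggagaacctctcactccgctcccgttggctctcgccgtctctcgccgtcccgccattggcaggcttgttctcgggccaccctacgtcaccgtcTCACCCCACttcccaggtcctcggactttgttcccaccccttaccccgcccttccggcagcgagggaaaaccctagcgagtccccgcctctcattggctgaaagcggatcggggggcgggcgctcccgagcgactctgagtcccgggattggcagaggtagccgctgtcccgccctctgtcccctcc
Of the 19 tested genes 12 had exactly 1 promoter in the table, and 1 of these 12 held the motif, against 1.07% of tested genes and 1.19% of all promoters. For the other 11 the letters were absent from this window only.

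Cell cycle genes were lower as a group on the authors' scale. Of 40 tested genes 25 were lower in cEpi and 6 higher, with a median of -0.63. Cdkn1c, an imprinted inhibitor of cyclin-dependent kinases, had 12.03, 12.01 and 12.20 in cEpi and 15.24, 15.26 and 15.32 in ES (-3.19 ± 0.09, adjusted p 2.03e-05). Its rEpiES means were 12.64 and 12.64 at passages 4 and 24, close to cEpi. Ccne1, cyclin E1, which drives entry into S phase and is abundant in ES cells, had 14.93, 14.93 and 14.94 in cEpi and 17.03, 17.01 and 17.12 in ES (-2.12 ± 0.07, adjusted p 3e-05). Cdc25a, the phosphatase that activates the same kinase, had 13.94, 13.99 and 14.04 in cEpi and 16.01, 16.03 and 15.85 in ES (-1.97 ± 0.09, adjusted p 4.9e-05). Mybl2, a transcription factor of cycling cells, fell by 2.67 ± 0.14 (adjusted p 6.43e-05). The D-type cyclins split. Ccnd2 had 15.26, 15.23 and 15.21 in cEpi and 13.23, 12.94 and 13.83 in ES (1.90 ± 0.23, adjusted p 0.00106). Ccnd3 rose by 1.88 ± 0.09 (adjusted p 5.48e-05), whereas Ccnd1 fell by 1.21 ± 0.10 (adjusted p 0.000263). The inhibitors Cdkn1a and Cdkn2b rose by 1.09 ± 0.07 and 1.28 ± 0.20 (adjusted p 0.000115 and 0.00259). Replication and mitosis genes made up most of the smaller falls, between -1.15 and -0.45. The call counts followed the scaling: 10 members were lower and 10 higher after median scaling, and 5 lower and 11 higher with no further normalisation. The list's position against all tested probes did not. Its median less theirs was -0.80 on the authors' scale and -0.86 under each of the other scalings. With only probes detected on all 6 arrays tested it was -0.56.

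Histone modifiers gave a similar picture. Of 27 tested genes, each of them detected on all 6 arrays, 17 were lower in cEpi and 4 higher, with a median of -0.59. The 2 largest falls were in partners of Polycomb complex PRC2, which methylates histone H3 at repressed developmental genes. Mtf2 had 14.82, 14.75 and 14.91 in cEpi and 17.40, 17.37 and 17.30 in ES (-2.53 ± 0.08, adjusted p 2.67e-05). Jarid2 had 14.13, 14.15 and 14.27 in cEpi and 16.11, 16.14 and 16.22 in ES (-1.97 ± 0.08, adjusted p 4.15e-05). The core subunit gene Eed had 14.95, 14.88 and 15.08 in cEpi and 16.53, 16.63 and 16.61 in ES (-1.62 ± 0.09, adjusted p 7.58e-05). The groups did not overlap in these 3 genes. The other core subunits moved less, Ezh2 by -0.86 ± 0.08 (adjusted p 0.000453, a call lost under both other scalings) and Suz12 by -0.50 ± 0.09 (adjusted p 0.00416), which median scaling turned to 0.19. Pcgf6, a subunit of the variant PRC1 complex that represses germ-line genes in ES cells, fell by 1.66 ± 0.07 (adjusted p 4.25e-05). Kdm6a, which removes the PRC2 mark, fell by 1.53 ± 0.09 (adjusted p 9.81e-05). Hdac1, a histone deacetylase, was the largest of the 4 rises (0.49 ± 0.08, adjusted p 0.00261). Of the 17 lower calls 8 remained in number after median scaling, when 6 members were called higher. The list median less that of all tested probes was -0.76 on the authors' scale and -0.58 under each of the other scalings. With only probes detected on all 6 arrays tested it was -0.52.

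**Figure D4:**
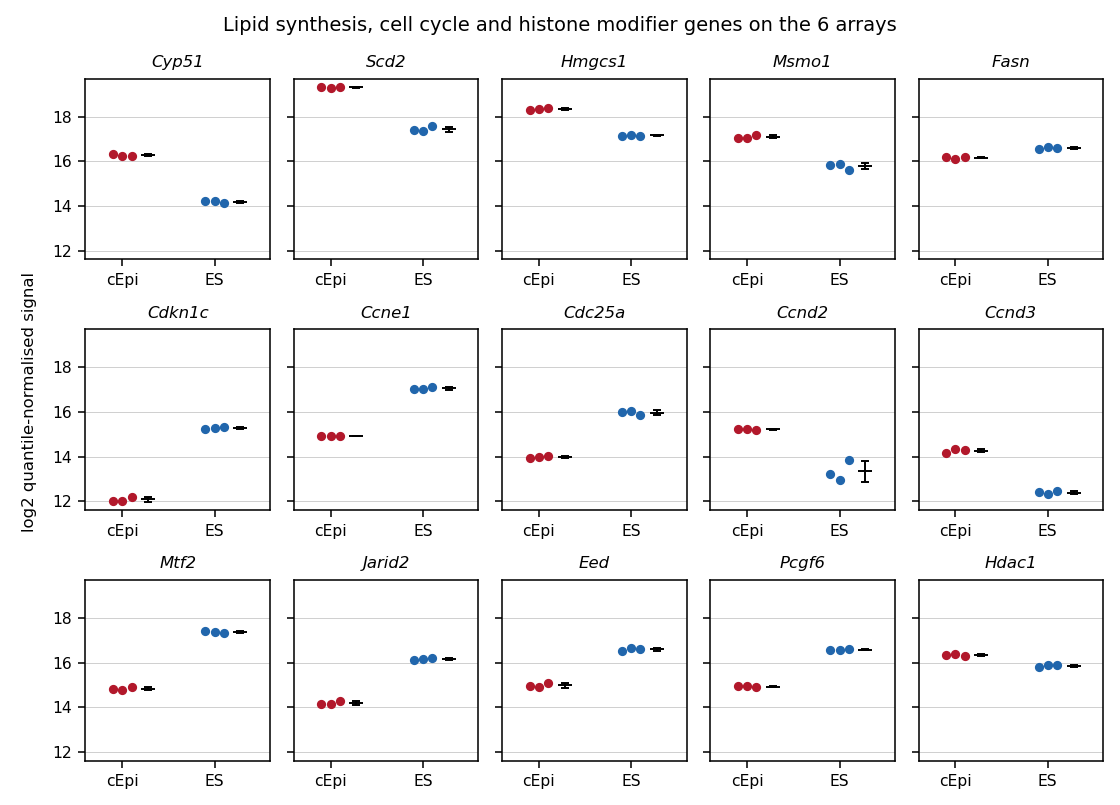
Each panel shows 1 gene on 3 cEpi arrays (red, left) and 3 ES arrays (blue, right), with log2 quantile-normalised signal on the shared vertical axis and the mean with its SD in black. The lipid synthesis genes of the first row lie higher in cEpi except Fasn. Cdkn1c, Ccne1 and Cdc25a lie lower. Mtf2, Jarid2, Eed and Pcgf6 also lie lower, Mtf2 the furthest of these with a difference of -2.53.

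Growth factor carriers, cytoskeleton and matrix genes were higher in cEpi together. Igfbp7, an insulin-like growth factor binding protein of stromal cells, had 18.13, 18.16 and 18.13 in cEpi and 14.75, 14.63 and 14.72 in ES (3.44 ± 0.07, adjusted p 1.81e-05). Igfbp4 was at least 14.6-fold higher (adjusted p 0.00119). Of 10 tested genes of this list 8 were higher and 2 lower, namely Igf2r and Irs1 (-0.99 ± 0.11 and -0.65 ± 0.21, adjusted p 0.000682 and 0.0406), neither of which was called lower after median scaling. Contractile actin genes were 11 higher and 0 lower of 13. Cald1, which regulates actin and myosin, had 13.71, 13.68 and 13.73 in cEpi and 10.46, 10.28 and 10.57 in ES (3.27 ± 0.10, adjusted p 2.28e-05). Matrix proteases and their inhibitors were 14 higher and 0 lower of 15. With only probes detected on all 6 arrays tested, they were 9 higher and 0 lower of 9. In that fit the actin genes were 8 and 0 of 9 and the insulin-like growth factor genes 5 and 2 of 7. Serpinh1, the collagen chaperone, had 17.40, 17.43 and 17.45 in cEpi and 13.85, 13.72 and 14.50 in ES (3.40 ± 0.21, adjusted p 0.000113). Bgn, a proteoglycan of connective tissue, was the largest rise among genes detected on all 6 arrays, at 16.47, 16.46 and 16.32 in cEpi and 11.58, 11.23 and 11.33 in ES (5.04 ± 0.12, adjusted p 1.81e-05). Every gene of this paragraph given by array had all cEpi arrays above all ES arrays. The feeder fibroblast sums given above moved the same way, and their part in these differences was not tested. Bgn is itself a member of the feeder list, so its rise is already inside those sums.

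Keratin genes moved in both directions. Krt8, a keratin of simple epithelia, had 18.79, 18.87 and 19.11 in cEpi and 16.61, 16.70 and 16.47 in ES (2.33 ± 0.12, adjusted p 6.64e-05). Its partner Krt18 rose by 2.27 ± 0.10 (adjusted p 5.22e-05). Krt19, a further simple epithelial keratin, rose by 3.37 ± 0.23 (adjusted p 0.000139). Krt42 and Krt17 ran opposite, with Krt42 at 11.43, 11.49 and 11.20 in cEpi and 14.47, 14.55 and 14.51 in ES (-3.13 ± 0.10, adjusted p 2.71e-05). Krt17, a keratin of skin appendages, fell by 2.63 ± 0.19 (adjusted p 0.000171). In all 7 of 14 tested members were higher and 3 lower.

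Genes for peptide hormones and gut products included some of the widest gaps. Pyy, an intestinal hormone, had 14.04, 14.15 and 14.23 in cEpi and 8.29, 8.01 and 8.35 in ES, and was at least 60.7-fold higher (adjusted p 1.81e-05). Gip, another, was at least 22.9-fold higher (adjusted p 6.91e-05). Cck had 16.14, 16.22 and 16.05 in cEpi and 13.27, 13.06 and 12.76 in ES (3.10 ± 0.15, adjusted p 5.79e-05), and Chga, a protein of secretory granules, rose by 2.40 ± 0.09 (adjusted p 3.43e-05). Ctse, a stomach-type cathepsin, fell by 2.17 ± 0.11 (adjusted p 6.98e-05). Of 23 genes with a named probe 14 were not tested, among them Cdx1, Pdx1, Fabp1 and Sst, and Vil1, the brush border gene, did not pass the test. Of the 9 tested members 3 were detected on all 6 arrays, with 2 higher and 1 lower when only such probes were tested.

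Members of the lysosome and glutathione list moved in both directions. Among lysosomal genes Ctsl, Npc2 and Lamp2 rose, Ctsl by 1.78 ± 0.08 (adjusted p 4.88e-05), Npc2 by 1.59 ± 0.15 (adjusted p 0.000449) and Lamp2 by 1.57 ± 0.09 (adjusted p 7.65e-05). The subunits of the enzyme that makes glutathione fell: Gclm had 14.75, 14.67 and 14.70 in cEpi and 17.17, 17.07 and 17.40 in ES (-2.50 ± 0.11, adjusted p 4.69e-05), and Gclc differed by -1.65 ± 0.12 (adjusted p 0.000162). Both subunits were below every ES array on every cEpi array. The transferases split, with Gsta4 at -2.60 ± 0.09 and Gsta3 at least 10.6-fold lower, and Gstm5 and Gstp1 higher by 2.56 ± 0.11 and 2.06 ± 0.10 (adjusted p 2.98e-05, 0.00127, 4.4e-05 and 6.26e-05). The list as a whole had 18 higher and 7 lower of 29.

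Imprinted genes, expressed from 1 parental copy, moved in both directions, 15 higher and 4 lower of 24 tested, against 20 and 2 after median scaling. Asb4 had 15.05, 15.09 and 14.98 in cEpi and 7.71, 8.05 and 9.17 in ES and was at least 98.9-fold higher (adjusted p 8.19e-05). Sgce, a gene of the same imprinted cluster, had 14.91, 14.88 and 14.90 in cEpi and 11.94, 11.60 and 12.04 in ES (3.03 ± 0.13, adjusted p 4.56e-05). Peg10, which lies between them, was lower, at 13.36, 13.24 and 13.32 in cEpi and 15.03, 15.15 and 15.56 in ES (-1.94 ± 0.15, adjusted p 0.000232). All 3 lie on chromosome 6.

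Of 44 tested cytosolic ribosomal protein genes 34 were not called, 7 were higher and 3 lower, with a median of 0.12. Median scaling gave 15 higher and 1 lower, and leaving out cEpi array 1 or 2 gave 3 higher and 1 lower. The ribosomal median less that of all tested probes was -0.05 on the authors' scale and -0.36 under median scaling. Of 40 genes of oxidative phosphorylation, each detected on all 6 arrays, 15 were higher and 9 lower, with a median of 0.25. Among all genes detected on all 6 arrays 32.8% were higher and 34.7% lower, with a median of -0.02. For the oxidative phosphorylation genes median scaling gave 24 higher and 1 lower, and leaving out ES array 3 gave 15 higher and 14 lower. Their median less that of all tested probes was 0.083 on the authors' scale and -0.008 under median scaling. On the X chromosome the median was 0.30 over 289 genes and 0.04 over the 207 detected on all 6 arrays. Of the Y-linked genes Eif2s3y, a translation factor, had 15.61, 15.47 and 15.52 in cEpi and 16.31, 16.23 and 16.44 in ES (-0.79 ± 0.09, adjusted p 0.000814), a call that was lost under median scaling and with no further normalisation. Uty did not pass the test (-0.69 ± 0.45, adjusted p 0.23).

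Some differences set ES apart from the other 3 groups. Slc16a1, a lactate transporter, had 16.44, 16.42 and 16.49 in cEpi and 12.38, 12.24 and 12.48 in ES (4.08 ± 0.09, adjusted p 1.81e-05), with rEpiES means of 14.97 and 15.43 at passages 4 and 24. Gja4, a gap junction protein, had 14.58, 14.70 and 14.51 in cEpi and 10.28, 11.02 and 11.22 in ES (3.76 ± 0.26, adjusted p 0.00014), with rEpiES means of 14.24 and 14.20. Ctnnb1, beta-catenin, had 15.29, 15.52 and 15.45 in cEpi and 13.65, 13.67 and 13.38 in ES (1.85 ± 0.12, adjusted p 0.000115), with rEpiES means of 15.38 and 15.71. For each of these genes the ES mean was the lowest of the 4 groups, and what sets it apart was not tested. The rEpiES values are set against the same ES and cEpi arrays and give no separate support.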

How the data were processed

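Total RNA of 12 samples was hybridised to Applied Biosystems AB1700 1-colour arrays of 33012 probes, per the labels' protocols. The deposited files give each probe a linear intensity, a log2 value that is quantile-normalised by the authors per the file headers, a signal-to-noise score and a quality code of unstated meaning. The scanner software and any background correction were not stated.

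Of the probes 14411 carried 1 gene symbol, 247 several and 18354 none here, and 14402 of the first matched the RefSeq gene table by gene ID. The log2 values of 3 cEpi and 3 ES arrays were fitted with limma 3.58.1 in R 4.3.3 (lmFit and eBayes, two-sided, Benjamini-Hochberg adjustment over the 14312 tested probes, threshold 0.05). The fit was tested on simulated data. The test pools the spread of both groups, which was unequal. The brightest tested probe stood for a gene. Where a probe was undetected on all arrays of 1 group, a bound replaced the fold: the brighter group's mean was set against, per array, the higher of the dim signal and the lowest detected signal. The number of arrays limits the precision.

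The members and lists were chosen with earlier results of these data known. Genes were named by a rule: the 10 largest rises and falls detected on all 6 arrays, the 6 largest bounds each way, up to 5 called members and the largest opposite call per list, a set of state markers and the Y-linked genes. Named outside the rule, after their values were seen, were Pdgfrb, Twist2, Ddx4, Ddx25, Lefty2, Tdgf1, Lef1, Lrp5, Sfrp2, Id1, Wnt3, Aldh1a1, Aldh1a2, Dusp6, Spry4, Socs3, Hmgcs1, Srebf1, Insig1, Ccnd1, Ccnd3, Cdkn1a, Cdkn2b, Ezh2, Suz12, Irs1, Chga, Vil1, Ctsl, Npc2, Lamp2, Gclc, Gstp1 and Ctnnb1. Not every gene of the rule is described. Promoters came from RefSeq (GRCm38.p6), for genes with exactly 1 entry. Alternatives were other scalings and filters, a fit of all 12 arrays, 1 variance per group, a replicate block and leaving out each array.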

Additional observations from a re-analysis of the deposited data

How the results depend on the processing

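The counts in probes were 4926 higher in cEpi and 3945 lower, of which 2971 and 1715 changed at least 2-fold. The scaling moved them most. Median scaling gave 7899 and 1355, of which 5541 and 778 changed at least 2-fold, and no further normalisation gave 8303 and 1029, of which 6272 and 658 did. Requiring detection on all 6 arrays turned the balance, with 3197 higher and 3881 lower (45.2% of calls higher), of which 1188 and 1443 changed at least 2-fold. That rule leaves out every probe that any of the 6 arrays did not detect. Leaving out each array in turn gave 3852 to 5470 higher and 3273 to 4215 lower, of which 2524 to 3265 and 1665 to 1777 changed at least 2-fold. The fit of all 12 arrays gave 5539 and 4332, 1 variance per group 5074 and 3712, no detection filter 4046 and 3498, and leaving out probes with a high quality code 4925 and 3931. Small falls of 5 named genes turned in sign, with the cause not tested. With median scaling the differences were 0.219 for Ddx4, 0.023 for Fasn, 0.193 for Suz12 and 0.238 for Wnt3. With no further normalisation they were 0.347 for Ddx4, 0.151 for Fasn, 0.115 for Irs1, 0.321 for Suz12 and 0.366 for Wnt3.

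Replicate numbers are shared between the groups, but same-numbered arrays did not deviate together (correlations of -0.005, 0.047 and -0.008). Whether they share more than a number was not tested. The fit with the replicate block gave 4467 probes higher and 3568 lower, of which 2856 and 1699 changed at least 2-fold. Signal over background limits genes that 1 group did not detect, for which bounds are given.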
